A study of Mus musculus with 12 samples.

Results

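Matricellular proteins are secreted into the extracellular matrix, where they act on cells through integrins and other receptors more than as building material. The 10 genes described here were chosen by symbol, by a rule that uses no measured value, though with earlier results of these data known: 5 of the CCN family (Ccn1, Ccn2, Ccn3, Ccn4 and Ccn5), the thrombospondins Thbs1 and Thbs2, periostin (Postn), tenascin-C (Tnc) and cartilage intermediate layer protein (Cilp). All 10 were found, with symbols taken from the authors' deposited table, among the 20620 genes of the count table, and all 10 passed the filter on low counts that left 19346 genes for testing. The lowest count of a member in any library was 268 and the highest 53444, so depth did not limit detection of any of them.

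The study measured messenger RNA in whole aortic valves of mice at postnatal day 10, in 3 groups of 4 libraries. The first group is labelled Notch1+/-;Gata5-/- (heterozygous for Notch1 and lacking Gata5; the Gata5-null pools below), the second Notch1+/-;Gata5+/- (heterozygous for both genes; the double-heterozygous pools below), and the third wildtype. Both mutant groups carry the same heterozygous Notch1 genotype, and no group altered in a single gene was analysed here, so a difference of a mutant group from wildtype cannot be assigned to either gene. The labels give no Cre or promoter, which part of each gene the alleles lack, sex, or strain. Each library is a pool of 3 valves, and the labels call the pools biological replicates. The question asked of each gene is whether its level differs between the genotypes, as the series title names disruption of both genes and valve disease.

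The libraries held 13866604 to 25059653 counts in genes. Gata5 had 0 counts in all 4 Gata5-null libraries, against 15 to 112 counts per library in double-heterozygous and 18 to 56 in wildtype. Its mean was 4.09 ± 2.27 CPM (SD, n = 4) in double-heterozygous and 1.77 ± 1.03 CPM in wildtype pools. At these low levels Gata5 was thus not lower in the double-heterozygous group. Notch1 averaged 185 ± 29.5 CPM (SD, n = 4) in Gata5-null and 172 ± 20.6 CPM in double-heterozygous pools, against 128 ± 26.4 CPM in wildtype. CPM here are read counts made comparable between libraries by TMM scaling. Notch1 was thus not lower in the heterozygous groups, and without knowing which part of the gene the allele lacks this total checks nothing. Library 3 of Gata5-null and library 2 of wildtype stood apart: their mean rank correlation with the other libraries was 0.892 and 0.925, against 0.933 to 0.950 for the rest. Gata5-null library 3 also held the fewest counts, 13866604. It had 6000 genes at 0 counts, against 1017 to 3208 in every other library. All 6 genes listed as valve interstitial cell markers (Col1a1, Col3a1, Dcn, Lum, Pdgfra and Vim) were present. Their summed levels were 19375 to 22332 CPM in Gata5-null, 19425 to 23865 CPM in double-heterozygous and 17672 to 22095 CPM in wildtype. Col3a1 and Col1a1 alone averaged 10961 and 6499 CPM in wildtype, so this sum does not by itself identify the cell type. The pools also held heart muscle RNA: 10 ventricular cardiomyocyte markers summed to 38530 to 55508 CPM in Gata5-null, 29330 to 55850 CPM in double-heterozygous and 23807 to 51509 CPM in wildtype. In such bulk samples, fewer cells of a type and less RNA per cell cannot be told apart.

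In background, CCN proteins share a modular plan and bind integrins, heparan sulfate proteoglycans and growth factors. Ccn1 and Ccn2 are standard targets of the mechanosensitive co-activators YAP and TAZ, which bind DNA through TEAD factors, and Ccn2 is also induced by TGF-beta. Thrombospondin-1 activates latent TGF-beta, while periostin is deposited by fibroblast-like valve cells and takes part in the maturation of the valve leaflets from the embryonic cushions. Tenascin-C appears where matrix is being remodelled, and Cilp is known from cartilage and fibrotic heart as a secreted antagonist of growth factor signalling.

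The stretch of DNA just upstream of the start of transcription was examined because Ccn1 and Postn represent opposite ends of the results below: Ccn1 gave the smallest p-value of the 10 genes in both comparisons with wildtype, and Postn had the highest and steadiest level. The RefSeq promoter table, on build GRCm38.p6, held an entry for 5 of the 10 members (Ccn1, Thbs2, Postn, Tnc and Cilp). The files are on another build, GRCm39, so these coordinates apply to the table only. Both windows are the 250 bases before a start, 5′ to 3′ on the gene's own strand, with capitals marking the matches. In Ccn1 (chr3:145649986-145650235, minus strand) the first capitals are CATTCC, the TEAD core GGAATG read on the other strand, beginning 103 bases before the start, and the second are the TATA box TATAAA, 25 bases before it. In Postn (chr3:54360857-54361106, plus strand, the second of 2 starts listed) the capitals are a TATA box 26 bases before the start.
Ccn1: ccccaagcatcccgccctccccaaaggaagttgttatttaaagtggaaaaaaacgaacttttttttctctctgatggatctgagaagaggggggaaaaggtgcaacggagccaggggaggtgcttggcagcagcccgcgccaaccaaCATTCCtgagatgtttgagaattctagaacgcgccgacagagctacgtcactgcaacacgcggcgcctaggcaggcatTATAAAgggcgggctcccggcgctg
Postn: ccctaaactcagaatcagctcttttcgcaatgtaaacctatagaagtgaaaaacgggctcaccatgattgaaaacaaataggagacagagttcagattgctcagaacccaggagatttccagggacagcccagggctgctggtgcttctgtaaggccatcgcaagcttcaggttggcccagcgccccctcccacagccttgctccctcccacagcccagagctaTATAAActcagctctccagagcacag

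Counting both strands, GGAATG is found in 12.6% of the 32536 distinct windows of this length in the table, and among the members in Ccn1. TATAAA is found in 12.3% of all windows, and among the members also in Thbs2 and in the windows of both Tnc starts. Other short motifs were searched in the same way. CCAAT, in 33.8% of all windows, was in Thbs2 among the members. The core bound by RBPJ, the DNA-binding partner of Notch, GTGGGAA, was in 1 member window (the second of the Tnc starts, 82 bases before it) and in 5.43% of all windows. The GATA motif AGATAA, in 9.97% of all windows, the AP-1 site TGANTCA, in 6.73%, the CRE TGACGTCA, in 1.56%, and the CArG box bound by SRF, in 1.48%, were in no member window. Such matches describe these letters in these windows and are not evidence of binding.

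The 10 genes covered a wide range of levels in the postnatal valve. Counts were divided by exon length so that genes could be set side by side, giving CPM per kilobase. The length joins all annotated exons of a gene, which need not be the length of its transcripts in the valve. Postn, the periostin gene, led in wildtype with 238.8 ± 22.8 CPM per kilobase (SD, n = 4), which ranked 73 among 18793 genes. Ccn3 and Ccn2 came next, with 86.9 ± 17.3 and 85.1 ± 19.8 CPM per kilobase, and the thrombospondins followed with 65.7 ± 12.8 for Thbs2 and 54.3 ± 7.59 for Thbs1. The CCN family thus ran across the list, since Ccn1 stood at 22.6 ± 5.18 CPM per kilobase while Ccn5 at 9.72 ± 1.99 and Ccn4 at 6.09 ± 1.03 were lowest. The order of Ccn5 and Ccn4 rests on their exon lengths of 1924 and 5565 bases. Before division by length, Ccn4 was the higher in wildtype, at 27.3 to 39.2 CPM against 13.9 to 22.8 CPM for Ccn5. Tnc had 22.0 ± 5.11 and Cilp 17.2 ± 2.26 CPM per kilobase. The wildtype pools of neighbouring genes did not overlap at 4 steps: between Postn and Ccn3, Thbs1 and Ccn1, Cilp and Ccn5, and Ccn5 and Ccn4. At the other steps the wildtype ranges of the neighbouring genes overlapped, so by these ranges those single steps are not larger than the spread between pools. Ccn3 and Thbs1, which are not neighbours, did not overlap in wildtype (73.7 to 110.4 against 47.0 to 63.8 CPM per kilobase). Postn, Ccn1, Ccn5 and Ccn4 held the same rank in all 3 groups.

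**Figure D1:**
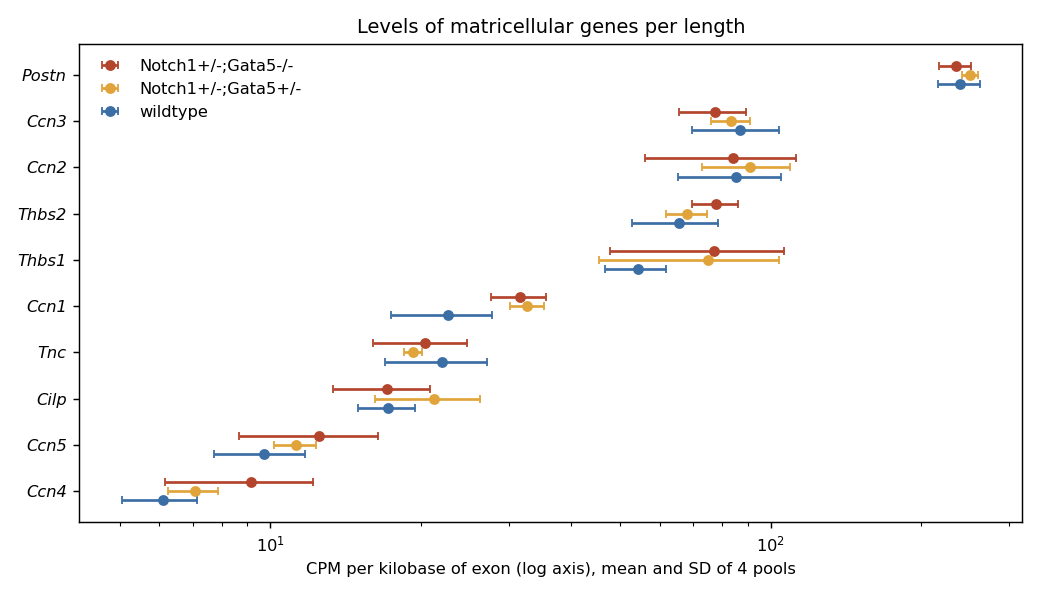
Level of each gene in CPM per kilobase of exon on a log axis, as mean (point) and SD (bar) of 4 pools for Gata5-null (Notch1+/-;Gata5-/-), double-heterozygous (Notch1+/-;Gata5+/-) and wildtype. Postn lies above all other members in every group, and Ccn5 and Ccn4 lie lowest.

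No member was called in any of the 3 comparisons. The test was edgeR's quasi-likelihood test on the counts of all 12 libraries, with Benjamini-Hochberg adjustment over 19346 genes. Adjusted p-values under 0.05 count as calls. Gata5-null against wildtype called 0 of 10 members and 0.0258% of all genes tested (5 genes, all lower). The double-heterozygous pools against wildtype called 0 of 10 members and 0% of all genes, and Gata5-null against double-heterozygous likewise 0 of 10 members and 0% of all genes. At an unadjusted p under 0.05, the member counts were 2 (Ccn1 and Ccn4, both higher), 1 (Ccn1, higher) and 0 in these comparisons, where 5.4%, 1.25% and 3.18% of all genes passed. DESeq2 also called 0 members in each comparison, beside 0.24%, 0.0391% and 0.0648% of the genes it gave an adjusted p. The authors' deposited table marks 33 of 13959 genes as changed and 0 of the 10 members. It does not name its comparison. Its log2 fold change of Ccn1, 0.515, was also that of DESeq2 here in Gata5-null over wildtype. The name of that table gives a cut on the log2 fold change and a looser adjusted p than 0.05. Its count is therefore not like for like with those above.

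As a group, the members centred near the other genes. Their median log2 fold change was 0.12 in Gata5-null over wildtype (5 of 10 positive, beside 46.1% of all genes and a median of -0.03), 0.15 in double-heterozygous over wildtype (8 of 10 positive, beside 50.3% and a median of 0.00), and -0.00 in Gata5-null over double-heterozygous (5 of 10 positive, beside 44.5% and a median of -0.04). Both comparisons with wildtype use the same 4 wildtype pools, so their values are not independent. The summed level of the 10 genes was 3429 to 4320 CPM in Gata5-null, 3815 to 4389 CPM in double-heterozygous and 3158 to 4190 CPM in wildtype, overlapping throughout.

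**Figure D2:**
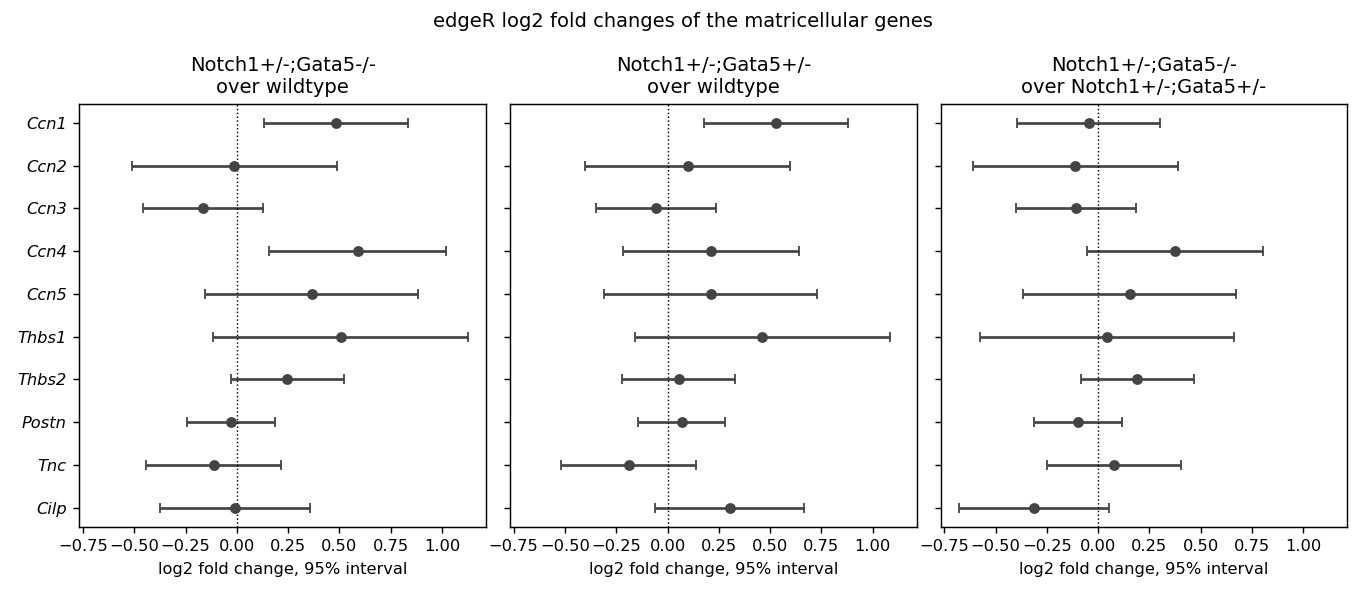
Log2 fold change (point) and 95% interval (bar) of each gene from edgeR in the 3 comparisons, each axis giving the first named genotype over the second. The intervals of Ccn1 lie above 0 in both comparisons with wildtype and that of Ccn4 in 1 of them, before adjustment for the number of genes, and none lies clear of 0 between the mutant groups.

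Ccn1 (ENSMUSG00000028195), whose secreted product supports cell adhesion and migration, came closest to a difference. Its level was 62.1, 57.3, 75.6 and 60.2 CPM in the Gata5-null pools, 73.2, 62.1, 62.4 and 65.9 CPM in the double-heterozygous pools, and 49.9, 36.7, 37.5 and 58.5 CPM in the wildtype pools. All 4 double-heterozygous pools lay above all 4 wildtype pools, whereas Gata5-null overlapped wildtype, because its second pool lay just under the highest wildtype pool. Against wildtype, the log2 fold change was 0.48 (SE 0.17, 95% interval 0.13 to 0.83, edgeR adjusted p = 0.839) in Gata5-null and 0.53 (SE 0.17, 0.18 to 0.88, adjusted p = 1) in double-heterozygous. A two-sided exact permutation test of this single gene over the pools gave p = 0.0571 and p = 0.0286, of which the second is the smallest that 4 against 4 pools allow. In double-heterozygous against wildtype pools, Ccn1 was the 1 member without overlap, where 1.32% of all genes lay higher and 0.915% lower without overlap. No member was without overlap in Gata5-null against wildtype, where 0.936% of all genes lay higher and 1.99% lower. The same held in Gata5-null against double-heterozygous pools, where 0.703% lay higher and 2.03% lower. Between the mutant groups it differed by -0.05 (-0.40 to 0.30). Without both libraries that stood apart, the log2 fold change in Gata5-null over wildtype was 0.31 (edgeR unadjusted p = 0.0874), more than 1.5 times smaller.

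Ccn1 is also an immediate-early gene, transcribed within minutes of stimulation, so other genes of that kind were read beside it. Of 23 tested immediate-early genes, 0 were called in any of the 3 comparisons by edgeR, and 1 had an unadjusted p under 0.05 in Gata5-null over wildtype. Fos, a subunit of the AP-1 factor, had 6.22 to 11.0 CPM in Gata5-null pools and 5.78 to 11.9 CPM in double-heterozygous pools, against 1.15 to 4.96 CPM in wildtype pools. These low levels did not overlap between either mutant group and wildtype. Of all genes, 0.936% lay higher than wildtype without overlap in Gata5-null and 1.32% in double-heterozygous pools. The log2 fold change of Fos in Gata5-null over wildtype was 1.38 (SE 0.49, edgeR adjusted p = 0.839). The AP-1 gene Junb and the nuclear receptor gene Nr4a2 had log2 fold changes of 0.63 and 0.97 in the same comparison. Junb also lay higher without overlap in it (13.0 to 17.9 against 7.24 to 12.6 CPM). Of the 23 genes, 15 were positive and 8 negative there, and the summed level of the list was 699.9 to 770.0 CPM in Gata5-null and 728.3 to 779.8 CPM in double-heterozygous, overlapping the 611.8 to 832.0 CPM of wildtype. In double-heterozygous over wildtype, 15 were positive and 8 negative, and 2 had an unadjusted edgeR p under 0.05, Fos at a log2 fold change of 1.35 and Egr1, named after its value was seen, at 0.57. Ier3, also named after its values were seen, lay higher in double-heterozygous than in wildtype pools without overlap (7.14 to 11.2 against 3.48 to 7.09 CPM). The part of an immediate-early response in the Ccn1 values was not tested.

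Ccn2 (ENSMUSG00000019997), the connective tissue growth factor gene, varied widely between pools of the same genotype. It had 342.3, 155.4, 204.3 and 262.6 CPM in Gata5-null, 319.0, 265.7, 192.6 and 265.9 CPM in double-heterozygous, and 219.6, 268.5, 178.1 and 307.8 CPM in wildtype. All 3 groups overlapped, and both the lowest and the highest pool were Gata5-null. Over wildtype, the log2 fold change was -0.01 (-0.51 to 0.49) in Gata5-null and 0.10 (-0.40 to 0.60) in double-heterozygous. In the GENCODE vM21 annotation Ccn2 shares 665 exon bases with Gm15270 on the opposite strand. Over all libraries that gene had 1571 counts and Ccn2 59257. The strand setting of the counting is unknown, so reads of the shared bases cannot be told apart.

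Ccn3 (ENSMUSG00000037362), a family member known to counter effects of Ccn2 in other tissues, was narrower. It had 224.0, 181.6, 219.1 and 264.1 CPM in Gata5-null, 214.8, 246.0, 232.1 and 265.0 CPM in double-heterozygous, and 212.6, 256.7, 211.5 and 316.6 CPM in wildtype. The groups overlapped, with the lowest pool in Gata5-null and the highest in wildtype. Its log2 fold change over wildtype was -0.17 (-0.46 to 0.13) in Gata5-null and -0.06 in double-heterozygous.

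Ccn4 (ENSMUSG00000005124), known as a gene induced by Wnt signalling, had the largest log2 fold change among the members in Gata5-null over wildtype. It had 36.0, 42.3, 74.0 and 51.8 CPM in Gata5-null, 34.0, 37.0, 42.7 and 43.4 CPM in double-heterozygous, and 27.3, 39.2, 30.9 and 38.2 CPM in wildtype. Gata5-null pools 2, 3 and 4 lay above every wildtype pool, pool 1 lay between wildtype pools, and pool 3 was highest. The log2 fold change was 0.59 (SE 0.21, 0.16 to 1.02, edgeR adjusted p = 0.839), and the two-sided exact permutation p was 0.0857. Pool 3 is a library that stood apart, and without it the log2 fold change was 0.36 (edgeR unadjusted p = 0.0673), over 1.5 times smaller. In double-heterozygous over wildtype it was 0.21, and between the mutant groups 0.38 (edgeR unadjusted p = 0.0838). The value between the mutant groups was 0.15 without Gata5-null pool 3, and that of double-heterozygous over wildtype was 0.12 without wildtype pool 1.

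Ccn5 (ENSMUSG00000027656) encodes a CCN protein without the C-terminal module of the others and restrains growth of smooth muscle cells in culture. It had 18.0, 20.3, 34.8 and 23.3 CPM in Gata5-null, 22.4, 24.0, 21.2 and 19.0 CPM in double-heterozygous, and 20.4, 22.8, 13.9 and 17.7 CPM in wildtype. Pool 3 of Gata5-null was again highest, and the groups overlapped. Ccn5 had a log2 fold change of 0.36 (-0.16 to 0.88) in Gata5-null and 0.21 in double-heterozygous over wildtype. The first was 0.14 without Gata5-null pool 3, a library that stood apart, and the second was 0.093 without wildtype pool 3 and 0.32 without wildtype pool 2.

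**Figure D3:**
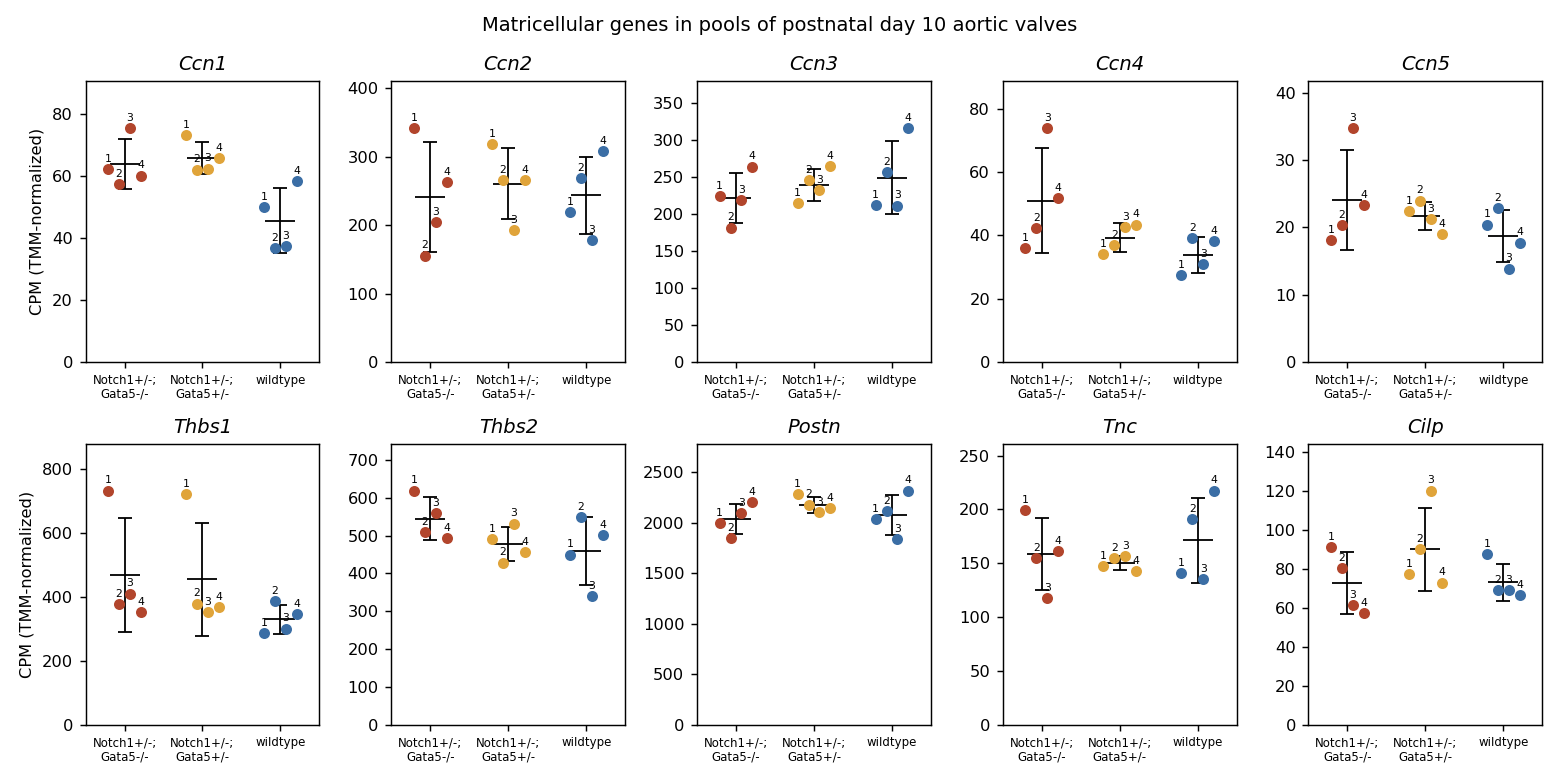
CPM of each of the 10 genes in every pool (points, numbered by replicate) for Gata5-null, double-heterozygous and wildtype, with mean and SD of 4 pools as lines. Ccn1 shows double-heterozygous at 62.1 to 73.2 CPM, clear of wildtype at 36.7 to 58.5 CPM, and Thbs1 shows pool 1 of both mutant groups above the other 10 pools.

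Thbs1 (ENSMUSG00000040152), an activator of latent TGF-beta and an inhibitor of blood vessel growth, was the most variable member. It had 732.6, 377.7, 409.9 and 351.3 CPM in Gata5-null, 721.0, 378.3, 351.4 and 366.6 CPM in double-heterozygous, and 285.5, 387.2, 300.5 and 345.4 CPM in wildtype. Pool 1 of each mutant group lay far above its 3 fellows, which overlapped the wildtype pools. The overlap came from wildtype pool 2 alone, a library that stood apart. Without wildtype pool 2, Thbs1 lay higher without overlap in Gata5-null and in double-heterozygous, where 1.63% and 2.63% of all genes did. The log2 fold change over wildtype was 0.51 (-0.11 to 1.12) in Gata5-null and 0.46 (-0.16 to 1.08) in double-heterozygous, with edgeR unadjusted p of 0.1003 and 0.129. Without pool 1 of both mutant groups, left out after their values were seen, it was 0.22 and 0.15, over 1.5 times smaller. Leaving out each library in turn gave 0.22 to 0.62 and 0.15 to 0.57. The shared replicate number does not tie pool 1 of the mutant groups to a common source as far as the labels say. Thbs1 also shares 208 exon bases with Gm29233, on the opposite strand in GENCODE vM21.

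Genes with values like those of Thbs1 were picked over the same 12 pools, so their high values in pool 1 of both mutant groups follow from that choice and are a description. Among 9721 genes with a mean log2 CPM of at least 3, the values most like those of Thbs1 over the 12 pools were those of Cpxm2, Abi3bp and Fmod, judged by the root mean square difference of log2 CPM centred on each gene (0.15, 0.17 and 0.24, beside 0.41 for Thbs1 against its own mean). Cpxm2, a member of the carboxypeptidase family, had 66.6 CPM in Gata5-null pool 1 and 65.0 CPM in double-heterozygous pool 1, against 26.3 to 43.9 CPM in the other 10 pools. Abi3bp, a matrix protein gene, had 209.7 and 206.9 CPM in these pools and 104 to 162 CPM in the others. Fmod, encoding the collagen-binding proteoglycan fibromodulin, had 318 and 268 CPM, against 134 to 238 CPM in the others. None of these 3 genes was called in any comparison by edgeR. The summed level of 8 chondrogenic markers, all 8 tested, was 1145 CPM in Gata5-null pool 1 (456 to 864 CPM in its fellows), 785 CPM in double-heterozygous pool 1 (561 to 628 CPM in its fellows) and 411 to 623 CPM in wildtype, with none of the 8 at 0 in a whole group. The ventricular marker sum was 40919 CPM in Gata5-null pool 1, within the 38530 to 55508 CPM of its fellows, and 29330 CPM in double-heterozygous pool 1, below the 48935 to 55850 CPM of its fellows. The atrial marker sum was below its fellows in both, at 67.4 CPM (104 to 292 CPM) and 67.9 CPM (105 to 496 CPM). The smooth muscle and valve interstitial sums (3831 and 22332 CPM) lay outside those of the fellows in Gata5-null pool 1. In double-heterozygous pool 1 they lay within (5233 and 20292 CPM). Some other lists also put pool 1 outside its fellows in a single mutant group. The part of pool composition in the Thbs1 values was not tested.

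**Figure D4:**
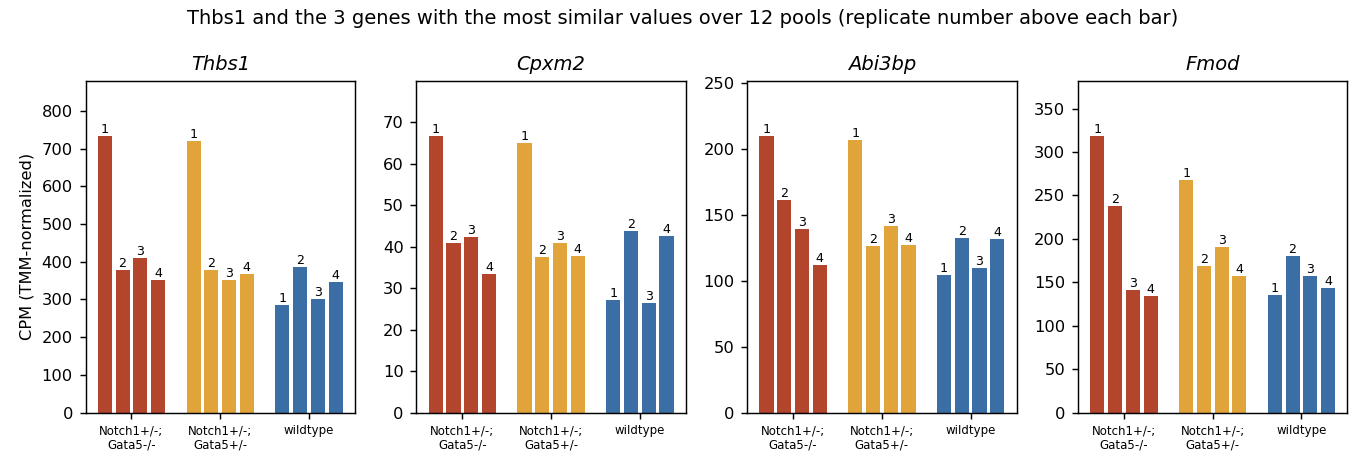
CPM of Thbs1 and the 3 genes most like it in each of the 12 pools (bars, numbered by replicate) for Gata5-null, double-heterozygous and wildtype. The 3 genes were picked for their likeness to Thbs1 over these pools, so their high values in pool 1 of both mutant groups (66.6 and 65.0 CPM for Cpxm2, against at most 43.9 CPM elsewhere) are no separate observation.

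Thbs2 (ENSMUSG00000023885), a thrombospondin that limits matrix metalloproteinase activity and collagen fibril growth, varied less than Thbs1. It had 619.4, 508.4, 559.1 and 493.2 CPM in Gata5-null, 491.5, 428.9, 532.0 and 456.8 CPM in double-heterozygous, and 449.6, 549.0, 339.8 and 500.8 CPM in wildtype. The highest pool was Gata5-null and the lowest wildtype, with overlap between all groups. For Thbs2 the log2 fold change over wildtype was 0.25 (-0.03 to 0.52, edgeR unadjusted p = 0.0788) in Gata5-null and 0.05 in double-heterozygous. Without wildtype pool 3 the value of Gata5-null over wildtype was 0.12.

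Postn (ENSMUSG00000027750), the most abundant member, was the steadiest. It had 1995, 1851, 2100 and 2207 CPM in Gata5-null, 2288, 2181, 2104 and 2149 CPM in double-heterozygous, and 2035, 2117, 1841 and 2321 CPM in wildtype. The highest and the lowest pool were both wildtype. Its SD over the 12 pools was 0.11 on the log2 scale, at percentile 0.808 among 10268 genes with a mean log2 CPM of at least 3 in the libraries. These genes reach down to far lower levels than Postn, so the percentile is not one among genes of like abundance. The log2 fold change over wildtype was -0.03 (-0.24 to 0.19) in Gata5-null and 0.07 (-0.14 to 0.28) in double-heterozygous, the narrowest intervals among the members.

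Tnc (ENSMUSG00000028364) encodes a large hexameric glycoprotein of remodelling matrix. It had 199.6, 154.6, 117.7 and 161.4 CPM in Gata5-null, 147.2, 154.6, 156.3 and 142.7 CPM in double-heterozygous, and 140.9, 191.2, 135.5 and 217.6 CPM in wildtype. The double-heterozygous pools lay within the range of both other groups. Over wildtype, Tnc had a log2 fold change of -0.11 in Gata5-null and -0.19 in double-heterozygous. Tnc shares 176 exon bases with 8030451A03Rik on the opposite strand, which had 79 counts over all libraries against 37947 for Tnc.

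Cilp (ENSMUSG00000042254), the growth factor antagonist, varied between pools of the same genotype. It had 91.3, 80.4, 61.5 and 57.5 CPM in Gata5-null, 77.4, 90.3, 120.3 and 73.0 CPM in double-heterozygous, and 87.5, 69.2, 69.2 and 66.7 CPM in wildtype. Pool 3 of double-heterozygous was highest and all groups overlapped. Cilp had a log2 fold change of -0.01 in Gata5-null over wildtype, 0.30 (-0.06 to 0.67, edgeR unadjusted p = 0.0993) in double-heterozygous over wildtype, and -0.31 (edgeR unadjusted p = 0.0896) in Gata5-null over double-heterozygous. Without double-heterozygous pool 3 these last values were 0.13 and -0.14.

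Genes around the members were read from lists chosen by function. In Gata5-null over wildtype, 5.4% of all genes had an unadjusted edgeR p under 0.05, the share to set beside the list counts below. Among 15 tested of 16 other matricellular genes, 0 were called in Gata5-null over wildtype by edgeR (2 at an unadjusted p under 0.05), with 8 positive, 7 negative and a median log2 fold change of 0.00. Comp, a thrombospondin family gene of cartilage and tendon, averaged 76.6 ± 41.7 CPM in Gata5-null and 39.1 ± 9.04 CPM in wildtype (SD, n = 4 each), with 0.97 as log2 fold change (edgeR adjusted p = 0.866). Tnxb, a tenascin of connective tissue, and Fbln5, an elastic fibre protein gene, had log2 fold changes of -0.35 and -0.26. In the other 2 comparisons 0 of these 15 were called as well.

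Among the receptors that bind matricellular proteins, 0 of 18 were called in any comparison. In Gata5-null over wildtype, 5 were positive and 13 negative, with a median of -0.07. There 5 had an unadjusted edgeR p under 0.05, beside 5.4% of all genes. Itga8, the alpha chain of an integrin that binds tenascin-C, averaged 612 ± 112 CPM in Gata5-null and 914 ± 144 CPM in wildtype (SD, n = 4 each). Its log2 fold change was -0.58 (SE 0.14, edgeR adjusted p = 0.341). Itgb3, the beta chain of an integrin that binds periostin and CCN proteins, averaged 74.1 ± 24.5 CPM in Gata5-null and 127 ± 21.3 CPM in wildtype, a log2 fold change of -0.78 (edgeR adjusted p = 0.426). Itga9 stood at -0.33. In double-heterozygous over wildtype, Itga8 and Itgb3 stood at -0.30 and -0.40 (edgeR unadjusted p = 0.0341 and 0.0445). They were the 2 of 18 receptors under 0.05 there, beside 1.25% of all genes, with 9 positive and 9 negative. Of 10 smooth muscle markers, 4 were called lower in Gata5-null against wildtype by edgeR, where 0.0258% of all genes were called. No gene, and so none of these 4, was called with only the 8 libraries compared or without pool 1 of both mutant groups. The summed level of the 10 markers was 3831 to 5119 CPM in Gata5-null, 5212 to 5739 CPM in double-heterozygous and 5660 to 7611 CPM in wildtype, with none at 0 in a whole group. Their part in the receptor values was not tested.

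The pathways known to act on Ccn1, Ccn2 and Thbs1 gave no calls either. Of 21 YAP and TEAD target genes, 20 were tested and 0 called in any comparison. In Gata5-null over wildtype, 10 were positive, 10 negative and 1 had an unadjusted edgeR p under 0.05. The target genes with the smallest p there were Fjx1 at a log2 fold change of -1.12, Gadd45a at 0.91 and Axl at -0.19. Among 15 regulators of the Hippo and SRF pathways, 0 were called, with 7 positive, 8 negative and 0 at an unadjusted edgeR p under 0.05 in the same comparison. Srf stood at -0.35, its partner Myocd at -0.22, and Wwtr1, the gene of TAZ, at 0.18. Of 19 TGF-beta genes 0 were called, with 7 positive, 12 negative and 2 at an unadjusted edgeR p under 0.05. Tgfb2, a ligand of the developing valve, averaged 70.8 ± 16.3 CPM in Gata5-null and 109 ± 23.6 CPM in wildtype (SD, n = 4 each), with -0.63 as log2 fold change (edgeR adjusted p = 0.563). The receptor gene Tgfbr1 and the ligand gene Tgfb3 stood at -0.31 and -0.26.

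Whether members varied together was examined over the 12 pools, for all 45 pairs. Of these, 34 had a positive Pearson's r, 5 had an unadjusted permutation p under 0.05, and 0 passed Benjamini-Hochberg adjustment by Pearson's r or by Spearman's rho. The highest was Ccn3 with Postn, at r = 0.733 (permutation p = 0.007, adjusted p = 0.226) and rho = 0.734 (permutation p = 0.00895, adjusted p = 0.403). Leaving out the 2 pools farthest from the median of Ccn3 gave r = 0.461, though this choice also narrows the range of Ccn3. With each gene centred within its genotype the same pair had r = 0.775, with an exact permutation p of 0.0242 and an adjusted p of 0.503. Ccn2 with Thbs1 had r = 0.594 over all pools and 0.138 without pool 1 of Gata5-null and of double-heterozygous. The other pairs at an unadjusted Pearson permutation p under 0.05 had a higher r without these 2 pools. It went from 0.733 to 0.889 for Ccn3 with Postn and from 0.703 to 0.893 for Ccn2 with Postn. For Ccn2 with Ccn3 it went from 0.600 to 0.926, and for Ccn4 with Ccn5 from 0.727 to 0.758. These 2 pools were left out after their Thbs1 values were seen. Without the 2 pools farthest from the median of Ccn2, its r was 0.325 with Postn, 0.295 with Ccn3 and 0.645 with Thbs1. Without the 2 pools farthest from the median of Ccn4, r for Ccn4 with Ccn5 was 0.533. Over all pools, Ccn4 with Ccn5 had rho = 0.448 (permutation p = 0.148). All values share the same libraries and scaling.

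For the 2 other widely varying members, Ccn4 and Ccn2, like genes were picked in the same way. Their likeness follows from that choice and is a description. The genes most like Ccn4 were Klc2, a kinesin light chain gene, Abcb10, a mitochondrial transporter gene, and Ppp1r37, at root mean square differences of 0.18, 0.19 and 0.20 over the 12 pools, beside 0.35 for Ccn4 against its own mean. Those most like Ccn2 were Plekho2, Shc1, an adaptor of growth factor receptors, and Garnl3, at 0.18, 0.18 and 0.19, beside 0.34 for Ccn2 itself. None of these 6 was called in any comparison by edgeR.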

How the data were processed

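The submitters' processing notes name Trim Galore (trimming), STAR 2.7.10b (alignment), the build GRCm39 and DESeq2 1.34.0. For the counting tool, annotation and strand setting, the sources used here give nothing. Libraries were made from poly-A RNA, per the labels' protocols. The authors deposited raw gene counts, and a table with a mean normalized signal, log2 fold changes, their standard errors and test statistics (both scores) and p-values. Symbols and the marks of changed genes were taken from that table. Counts were scaled by TMM and tested with edgeR 4.0.16 (robust quasi-likelihood fit over all 12 libraries, filterByExpr); DESeq2 1.42.0 and limma 3.58.1 (voom) were alternatives. The code was tested on simulated data. Standard errors are the log2 fold change over the root of F. Single genes were also tested by exact permutation over the 35 distinct splits of 4 against 4 pools. CPM per kilobase used GENCODE vM21 exon lengths, on another build (GRCm38). The members and lists were chosen with earlier results of these data known. Named genes are all 10 members, the 3 genes of smallest p in Gata5-null against wildtype in each list described, and the 3 genes most like each of the 3 most variable members. Alternatives were RLE scaling, filters, tools, subsets of samples and leaving out libraries. Replicate numbers are shared by the groups, but same-numbered pools did not deviate together, so they were not treated as pairs. The edgeR p-values set a difference between groups against the spread between pools, estimated over all 12 libraries. Permutation p-values set a value against those from rearranged pools.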

Additional observations from a re-analysis of the deposited data

Results flagged for a closer look

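Within 30 groups of 4 pools (10 genes in 3 groups), a single pool stood far from its fellows, by the gap to the nearest pool over the range, in 3; chance gives about 1 in 20. Thbs1 was at 732.6 CPM in Gata5-null pool 1, with the other 3 pools at 351.3 to 409.9 CPM. Thbs1 was at 721.0 CPM in double-heterozygous pool 1, with the other 3 at 351.4 to 378.3 CPM. Cilp was at 87.5 CPM in wildtype pool 1, with the other 3 at 66.7 to 69.2 CPM.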

How the results depend on the processing

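No member was called under any of the 21 alternative settings, in any of the 3 comparisons, and the lowest adjusted p of a member was 0.409 (DESeq2). Of 630 recomputed member values 592 kept their sign, and 18 of 30 member results never turned. The replicate block, though the numbers do not pair the pools (12 same-number correlations of -0.033 to 0.095, and 3 of 12 libraries closest to their own number), gave 7 called genes in Gata5-null against wildtype and 0 in both others.

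Called genes over the whole table, 5 in Gata5-null against wildtype, were 49 by DESeq2, 0 with only the 8 libraries compared, 2 without both libraries that stood apart, 0 without pool 1 of both mutant groups, and 2 to 21 when each library was left out in turn (2 without wildtype 2, 3 without Gata5-null 1 and 21 without Gata5-null 4). In Gata5-null against double-heterozygous they were 13 by DESeq2, 2 without both libraries that stood apart and 0 to 1 on leaving out each library (1 without Gata5-null 2, 3 or 4), beside 0, and in double-heterozygous against wildtype they were 8 by DESeq2, beside 0. The cause was not tested.

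Signs turned in small values. In Gata5-null over wildtype, DESeq2 and RLE scaling gave 0.012 for Ccn2 and 0.018 for Cilp, and leaving out both libraries that stood apart gave 0.12 for Ccn2, 0.044 for Cilp and 0.069 for Tnc. Leaving out each library gave -0.22 to 0.15 for Ccn2, -0.12 to 0.087 for Cilp, -0.082 to 0.029 for Postn and -0.23 to 0.022 for Tnc. In double-heterozygous over wildtype, Ccn2 was -0.012 without pool 1 of both mutant groups. Leaving out each library gave -0.023 to 0.23 for Ccn2, -0.13 to 0.079 for Ccn3 and -0.065 to 0.15 for Thbs2. In Gata5-null over double-heterozygous, Ccn1 was 0.038 and Tnc -0.050 without pool 1 of both, and Ccn5 -0.067 without both libraries that stood apart. Leaving out each library gave -0.13 to 0.025 for Ccn1, -0.31 to 0.047 for Ccn2, -0.071 to 0.29 for Ccn5, -0.24 to 0.37 for Thbs1 and -0.040 to 0.20 for Tnc. Without turning sign, Ccn3 in Gata5-null over wildtype ranged from -0.26 to -0.031 and Tnc in double-heterozygous over wildtype from -0.28 to -0.052.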
